A study of Mus musculus with 58 samples.

Results

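The macrophage and myeloid genes measured here are 33 of the 56953 genes in the count table. They comprise adaptors and receptors of the myeloid cell surface, lysosomal and antimicrobial proteins, cytoskeletal and signalling proteins of blood cells and the transcription factor Spi1. They were selected as a set by name after values of these libraries had been seen, in part on their differences between castrated and control males. Those differences, and other comparisons that use the same male libraries, are therefore given as a description. For them, counts of members past an adjusted p of 0.05 in edgeR (called) stand beside the share of all genes past it and test nothing about the members. A member had to have at least 5 reads in more than 3 libraries to be tested, and 28 of the 33 did. Cd163, Cx3cr1, Ccr2, Aif1 and Spi1 did not.

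Macrophages are phagocytes that reside in most tissues, and in fat they line vessels and take up dying adipocytes and lipid. Their identity depends on the transcription factor PU.1 and on the receptor for colony stimulating factor, and they signal through receptors that pair with small adaptor proteins carrying an immunoreceptor tyrosine-based activation motif (ITAM). Ingested material is broken down in lysosomes rich in cathepsins. Most of the genes described here are little expressed in fibroblasts, although Gpnmb, Csf1r and Cd14 can also be found outside the myeloid lineage.

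The libraries were made from adipose stem cells (ASC) of inguinal white adipose tissue (iWAT), the subcutaneous fat of the flank, of C57BL6/J mice. Surgery, castration of males or ovariectomy of females, was done at an age of 4 weeks, and mice of every group were killed when 10 weeks old after a fast of 4 h. Cells negative for CD45 and CD31 and positive for CD34 were sorted as ASC1 when negative and as ASC2 when positive for DPP4, so the sort was set to leave out blood cells, which carry CD45. RNA was read as bulk Smart-seq3 libraries, which cover whole transcripts. The control males had 7 ASC1 libraries and the ovariectomized females 3, and the other 6 groups, each a sex and treatment in ASC1 or ASC2, had 8. The labels do not tie a library to a mouse, so p-values measure the spread between libraries only. Total counts per library were 106566 to 1421547, of which 125 to 11587 reads fell on the 33 genes. Levels are counts per 1e6 reads (CPM) on library sizes scaled by the trimmed mean of M values, and compare libraries, not genes, since they are not divided by length. A library without a read of a gene allows up to 3 reads, which is 2.11 to 25.6 CPM depending on the library. In bulk RNA, fewer macrophages and less of a transcript per macrophage cannot be told apart.

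A part of the libraries went against its sex label, and this touches every result on these genes. Of the 58 libraries, 26 were labelled male with at least 20 reads of Xist, the transcript of the inactive X chromosome, or female with at least 3 reads of 4 Y-linked genes. They were 7 of 8 castrated male ASC1, 4 of 7 control male ASC1, 4 of 8 control male ASC2, 5 of 8 control female ASC1 and 6 of 8 control female ASC2 libraries. The cut of 20 reads was not scaled to depth. The castrated male ASC1 library not counted, P, had 13 Xist and 0 Y-linked reads in 235104 counts. Of the 26, 13 held at least 20 Xist reads and at least 3 Y-linked reads together, and 13 did not. C7, a complement gene looked at after its values were seen, went with the labels in control males, castrated males and control females instead. It lay at 122 to 335 CPM in ASC1 and 208 to 1656 CPM in ASC2 of control males. In castrated males it lay at 0 to 14.3 and 0 to 7.22 CPM, and in control females at 0 to 20.7 and 0 to 14.6 CPM. Ovariectomized ASC2 held 0 to 3.83 CPM. Ovariectomized ASC1 libraries L, N and P held 50, 284 and 105 CPM, with N inside the range of control male ASC1. Whether libraries or labels were exchanged or mixed was not tested, and groups are named by their labels throughout. The ovariectomized ASC1 libraries also stood apart, with a summed level of 6 fibroblast genes of 47482 to 49293 CPM against 4424 to 19254 CPM in the other 55 libraries.

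Summed over the 33 genes, the level varied widely within control male ASC1, control female ASC1 and castrated male ASC2 and little within castrated male ASC1. The lowest, median and highest sums were 1298, 1697 and 10778 CPM in control male ASC1, 1268, 1476 and 1691 CPM in castrated male ASC1, 1491, 1651 and 3646 CPM in control male ASC2 and 2466, 3412 and 11471 CPM in castrated male ASC2. In females they were 1267, 4774 and 6110.4 CPM in control ASC1, 1496, 1899 and 3169.6 CPM in control ASC2, 599.8, 643 and 770.3 CPM in the 3 ovariectomized ASC1 libraries and 1084, 1669 and 2068 CPM in ovariectomized ASC2. Control male ASC1 fell apart into libraries B, C and D, at 9020.4 to 10778 CPM, and E to H, at 1298 to 1697 CPM, while the 8 castrated ASC1 libraries overlapped with the latter. Libraries B, C and D had no Xist read, and E to H had 29 to 82. In castrated male ASC2, libraries I and J held 11471 and 10258 CPM and the other 6 held 2466 to 4242 CPM. Lyz2 and Gpnmb made most of each sum. Without them, 2496 to 3184.5 CPM remained in control male ASC1 libraries B, C and D and 366.7 to 511.9 CPM in E to H. In castrated male ASC2 it was 3422 and 3350 CPM in I and J and 663 to 1386 CPM in the others. In ovariectomized ASC1 libraries L, N and P, 106.8, 119.1 and 141.7 CPM remained. There Gpnmb alone held 520.5, 449 and 561 CPM.

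**Figure D1:**
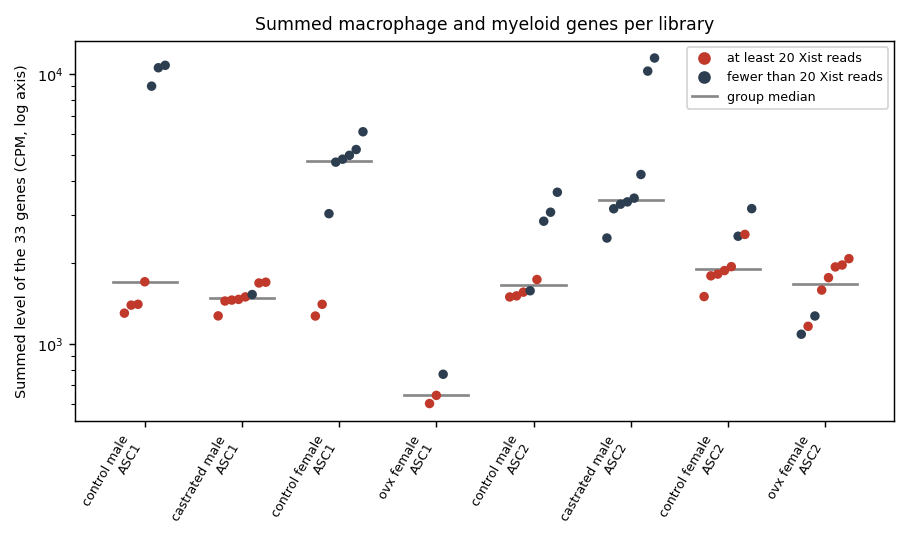
Summed level of the 33 genes in CPM (log axis) in each of the 58 libraries, by group (ovx, ovariectomized). Points are libraries, red with at least 20 and dark with fewer than 20 Xist reads, and the grey line is the group median. The 3 dark points of control male ASC1 lie at 9020 to 10778 CPM and its 4 red points at 1298 to 1697 CPM, beside castrated male ASC1 at 1268 to 1691 CPM.

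The highest sums were found in libraries with few Xist reads. The 20 libraries with the highest sums, down to 2847 CPM, had 6 or fewer Xist reads each, and 19 of them had at least 20 reads of the Y-linked genes. The exception was control female ASC1 library A, with 1 such read. The 31 libraries with at least 20 Xist reads lay at 599.8 to 2543 CPM. Of the 27 with fewer, 7 were not above all of these, among them control male ASC2 library D, with no Xist read and 57 Y-linked reads, at 1572 CPM. Castrated male ASC1 P, ovariectomized ASC2 N and P and ovariectomized ASC1 P were also among the 7. These had 13, 17, 3 and 5 Xist reads and 0 Y-linked reads, in shallow libraries of 106566 to 248114 counts. In control female ASC1 the 6 libraries with fewer than 20 Xist reads held 3036 to 6110.4 CPM and the other 2 held 1267 to 1399.9 CPM, and in control male ASC2 the corresponding ranges were 1572 to 3646 and 1491 to 1730.1 CPM. Castrated male ASC1 had 13 to 97 Xist reads a library and castrated male ASC2 0 to 5, so population and sex-chromosome reads cannot be told apart in castrated males.

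Gene by gene, the split inside control male ASC1 was the same. In 26 of the 28 tested members, all but Cd14 and Tagap, each of libraries B, C and D exceeded each of E to H, where 9.27% of all genes tested did so. The same 26 exceeded every castrated ASC1 library in B, C and D (background 5.2%). Against E to H, no member was without overlap with the castrated libraries in either direction (background 1.2% higher and 0.642% lower in E to H). In control male ASC2, Adgre1, Lyz2, Cd68, Ctss and Lcp1 were higher without overlap in libraries A to D than in E to H (background 1.77%). In control female ASC1, 17 members were lower without overlap in the 2 libraries with at least 20 Xist reads than in the other 6 (background 12%).

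**Figure D2:**
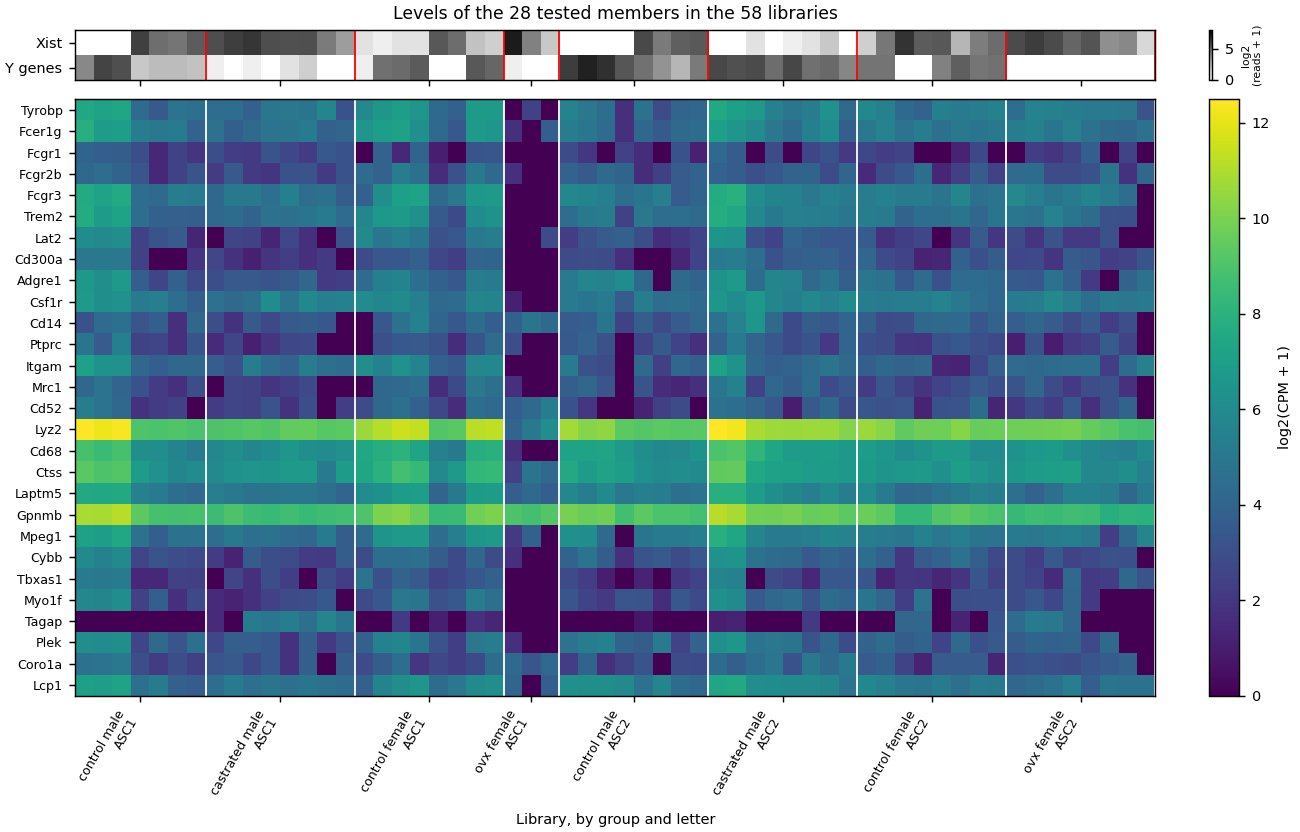
Levels of the 28 tested members as log2(CPM + 1) in the 58 libraries, ordered by group (white lines) and replicate letter, with the reads of Xist and of 4 Y-linked genes above as log2(reads + 1). The 3 leftmost columns (control male ASC1 B, C and D) and the first 2 of castrated male ASC2 (I and J) are bright in nearly all rows, and Tagap has its reads in other libraries.

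Castration was compared in each population. With all libraries, 18 of the 28 tested members were lower in castrated than in control male ASC1 and 1, Tagap, was higher, at an adjusted p below 0.05 in edgeR. Of all 12464 genes tested, 1.3% were lower and 1.06% higher, and since the set was chosen in part on this comparison nothing is read from the counts. The median difference was -1.76 over the members, also with Tagap at its bound, and -0.01 over all genes tested (log2). In ASC2, 17 members were higher after castration and 0 lower (all genes, 2.66% higher and 4.29% lower), with a median of 1.45. The difference between both effects, ASC2 minus ASC1, was positive for 24 members and negative for 0 (all genes, 1.53% and 0.883%). For fits other than the main one on all libraries, here and below, the share of all genes called was not taken. Fitted against control males with at least 20 Xist reads, 0 members were lower in castrated ASC1, Tagap was higher, and the difference between populations was called for 0. Against control males with fewer than 20 Xist reads, 24 members were lower in castrated ASC1. Without castrated ASC2 libraries I and J, 3 members were higher in castrated ASC2 in place of 17, and it was 10 when fitted on the compared groups alone, 8 against control males with fewer than 20 Xist reads and 5 without the libraries against their sex label. Leaving out single libraries, 6 to 20 members were called in ASC1, 6 without control male library D and 10 each without B and C. In ASC2 it was 5 to 19, with 5 without castrated library I, 9 without J and 11 without control male library D.

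**Figure D3:**
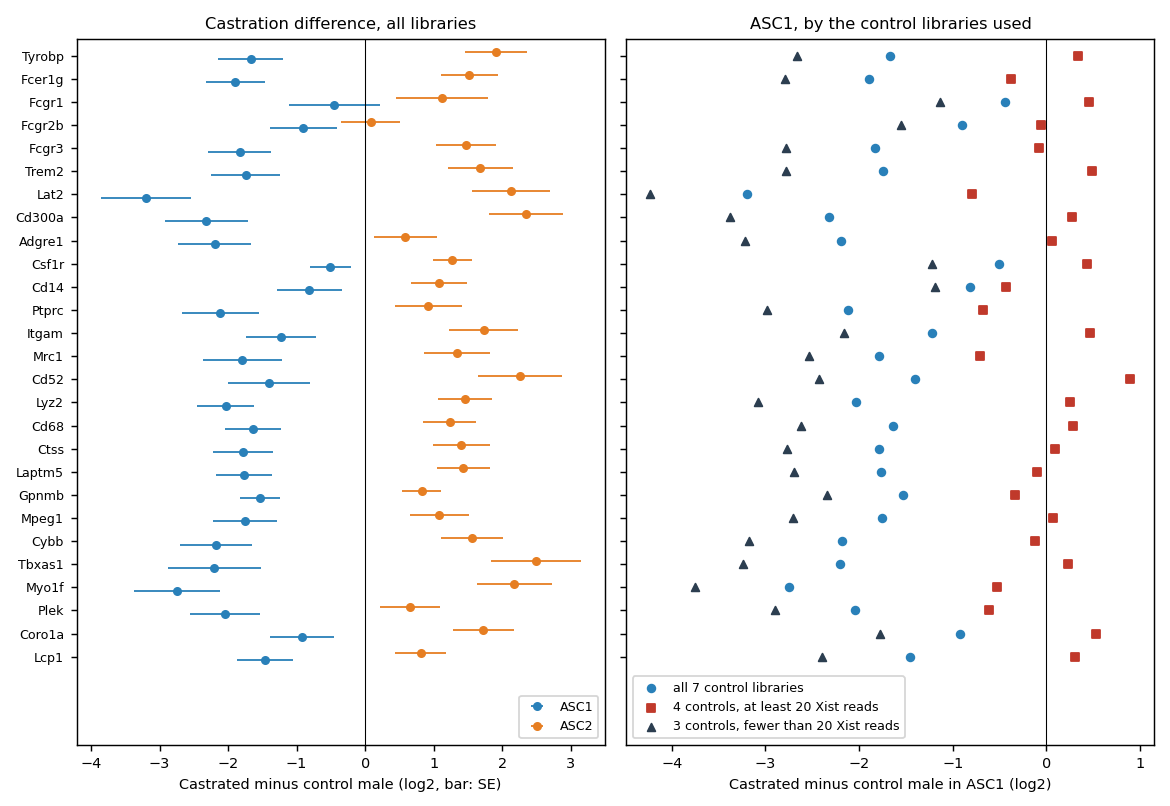
Left, castrated minus control male difference (log2) of the 27 tested members other than Tagap in ASC1 (blue) and ASC2 (orange), with the SE of the edgeR fit as bars. Right, the ASC1 difference with all 7 control libraries (circles), the 4 with at least 20 Xist reads (squares) or the 3 with fewer (triangles). All blue points lie below 0 and all orange ones above it, and the squares scatter around 0.

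ITAM adaptors, Fc receptors and related adaptors and receptors, some of them inhibitory, formed the first group, 8 genes of which all were tested. Tyrobp, encoding the adaptor DAP12, lay at 10.4, 26.5 and 175 CPM (lowest, median and highest) in control male ASC1, at 7.95, 24.9 and 53 CPM in castrated male ASC1, at 2.22, 19.2 and 46.4 CPM in control male ASC2 and at 19.3, 61.2 and 192 CPM in castrated male ASC2. Female Tyrobp levels were 14, 93.2 and 123 CPM in control ASC1 and 14.9, 38.7 and 55.3 CPM in control ASC2, 0, 4.58 and 0 CPM in ovariectomized ASC1 libraries L, N and P, and 8.54, 33.7 and 44.9 CPM in ovariectomized ASC2. Libraries B, C and D made the upper end in control male ASC1, and castrated ASC2 library I had the highest value of all. Levels of Fcer1g, the gamma chain shared by Fc receptors, had a lowest, median and highest value of 14.2, 36.4 and 226 CPM in control and 12.7, 22.1 and 32.9 CPM in castrated male ASC1, and of 2.22, 19.2 and 38.6 CPM in control and 12.9, 52.2 and 132 CPM in castrated male ASC2. For Fcer1g in females, control ASC1 held 9.97, 93 and 139 CPM, control ASC2 23.6, 30.9 and 45.6 CPM, ovariectomized ASC1 libraries L, N and P 2.27, 0 and 12.3 CPM, and ovariectomized ASC2 17.2, 26.6 and 43.9 CPM. Its highest value was in control male ASC1 library B, and the groups overlapped in both populations. Trem2, a DAP12-coupled lipid receptor of macrophages, lay at 12.7, 21.7 and 205 CPM (lowest, median and highest) in control male ASC1, at 14.6, 21.9 and 33.1 CPM in castrated male ASC1, at 4.44, 21.9 and 38.2 CPM in control male ASC2 and at 29, 41.1 and 213 CPM in castrated male ASC2. Female Trem2 levels were 5.98, 71.4 and 111 CPM in control ASC1 and 14.7, 24.9 and 38.7 CPM in control ASC2, 0, 0 and 0 CPM in ovariectomized ASC1 libraries L, N and P, and 0, 22.7 and 46.1 CPM in ovariectomized ASC2. No read fell on it in ovariectomized ASC1, and castrated ASC2 libraries I and J stood above all others of their group. Levels of Fcgr3, the low-affinity receptor for immunoglobulin G, had a lowest, median and highest value of 19, 37.6 and 200 CPM in control and 11.9, 23 and 40.5 CPM in castrated male ASC1, and of 11, 34.1 and 55.4 CPM in control and 30.7, 46.9 and 239.7 CPM in castrated male ASC2. For Fcgr3 in females, control ASC1 held 13.1, 87.1 and 149 CPM, control ASC2 23.7, 33.6 and 50 CPM, ovariectomized ASC1 libraries L, N and P 0, 0 and 0 CPM, and ovariectomized ASC2 0, 34.4 and 58.4 CPM. As for Trem2, the ovariectomized ASC1 libraries had no read. Fcgr2b, the inhibitory receptor for immunoglobulin G, lay at 1.73, 8.68 and 21 CPM (lowest, median and highest) in control male ASC1, at 2.85, 5.71 and 10.2 CPM in castrated male ASC1, at 2.11, 12.6 and 18.6 CPM in control male ASC2 and at 6.36, 12.8 and 16.1 CPM in castrated male ASC2. Female Fcgr2b levels were 2.13, 19.1 and 36.5 CPM in control ASC1 and 1.58, 5.36 and 21.7 CPM in control ASC2, 2.27, 0 and 0 CPM in ovariectomized ASC1 libraries L, N and P, and 2.46, 12.5 and 26.8 CPM in ovariectomized ASC2. Library D stood out in control female ASC2, and libraries I and J did not stand above the rest of castrated ASC2.

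Lat2, an adaptor of the linker for activation family, lay at 1.42, 11.1 and 71.3 CPM (lowest, median and highest) in control male ASC1, at 0, 3.42 and 7.95 CPM in castrated male ASC1, at 2.11, 5.88 and 13.3 CPM in control male ASC2 and at 4.77, 10.8 and 88.4 CPM in castrated male ASC2. Female Lat2 levels were 7.46, 30.6 and 58.8 CPM in control ASC1 and 0, 3.42 and 11.1 CPM in control ASC2, 0, 0 and 6.16 CPM in ovariectomized ASC1 libraries L, N and P, and 0, 3.35 and 8.3 CPM in ovariectomized ASC2. The ASC1 libraries of castrated males and of control males E to H had few reads, with the latter overlapping with the former. Levels of Cd300a, an inhibitory receptor for phospholipids, had a lowest, median and highest value of 0, 4.34 and 31.1 CPM in control and 0, 2.7 and 5.36 CPM in castrated male ASC1, and of 0, 3.47 and 6.72 CPM in control and 7.94, 14 and 36.8 CPM in castrated male ASC2. For Cd300a in females, control ASC1 held 3.99, 9.79 and 15.6 CPM, control ASC2 1.35, 6.81 and 16.6 CPM, ovariectomized ASC1 libraries L, N and P 0, 0 and 0 CPM, and ovariectomized ASC2 2.77, 5.47 and 11.5 CPM. Castrated and control ASC2 did not overlap, which held for 2 of the 28 members, Cd300a and Csf1r (all genes, 0.168%). Fcgr1, the high-affinity receptor for immunoglobulin G, had a mean under 5 CPM, a range of 0 to 18.5 CPM and a read in 43 libraries. The castration difference in ASC1 was -1.67 ± 0.47 for Tyrobp (log2 ± SE), -1.89 ± 0.43 for Fcer1g and -3.20 ± 0.66 for Lat2, the lowest of all tested members. In ASC2 the same genes had differences of 1.91 ± 0.46, 1.52 ± 0.42 and 2.12 ± 0.57. Over the 8 genes the range was -3.20 to -0.45 in ASC1, with 6 called lower, and 0.08 to 2.35 in ASC2, with 6 called higher, and Fcgr1 and Fcgr2b were called in neither.

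Surface receptors and antigens were the second group, of which 7 of 10 were tested. Ptprc, which encodes CD45, the antigen gated against in the sort, lay at 2.21, 8.49 and 41.6 CPM (lowest, median and highest) in control male ASC1, at 0, 2.32 and 5.87 CPM in castrated male ASC1, at 0, 6.29 and 14.4 CPM in control male ASC2 and at 3.18, 11.9 and 34.2 CPM in castrated male ASC2. Female Ptprc levels were 0, 7.93 and 20.2 CPM in control ASC1 and 2.71, 6.81 and 9.72 CPM in control ASC2, 6.82, 0 and 0 CPM in ovariectomized ASC1 libraries L, N and P, and 0, 3.92 and 11.5 CPM in ovariectomized ASC2. Its reads were few but present in 51 of 58 libraries, with the highest value in control male ASC1 library D. Levels of Adgre1, encoding the macrophage antigen F4/80, had a lowest, median and highest value of 5.18, 13.3 and 104 CPM in control and 3.31, 9.34 and 16.4 CPM in castrated male ASC1, and of 0, 26.1 and 66.6 CPM in control and 12.9, 36.5 and 106 CPM in castrated male ASC2. For Adgre1 in females, control ASC1 held 9.97, 28.9 and 48.1 CPM, control ASC2 7.88, 19.8 and 29.5 CPM, ovariectomized ASC1 libraries L, N and P 0, 0 and 0 CPM, and ovariectomized ASC2 0, 11.8 and 25.6 CPM. Libraries A to D of control male ASC2 lay above E to H, and castrated and control ASC2 overlapped. Csf1r, the receptor for colony stimulating factor, lay at 12.7, 39.8 and 109 CPM (lowest, median and highest) in control male ASC1, at 19.1, 33.6 and 65.6 CPM in castrated male ASC1, at 11.1, 25.7 and 36.6 CPM in control male ASC2 and at 41, 58.7 and 99.6 CPM in castrated male ASC2. Female Csf1r levels were 18.1, 49.2 and 65.3 CPM in control ASC1 and 17.5, 36 and 45.7 CPM in control ASC2, 1.14, 0 and 0 CPM in ovariectomized ASC1 libraries L, N and P, and 21.6, 34.3 and 57.2 CPM in ovariectomized ASC2. Its castrated ASC2 libraries all exceeded the control ones, and castrated ASC1 lay inside the range of control ASC1. Levels of Itgam, encoding CD11b, the alpha chain of an integrin of myeloid cells, had a lowest, median and highest value of 12.1, 17.7 and 139 CPM in control and 7.63, 19.9 and 38.8 CPM in castrated male ASC1, and of 0, 10.3 and 34.8 CPM in control and 12.7, 19.9 and 152 CPM in castrated male ASC2. For Itgam in females, control ASC1 held 9.97, 51.4 and 79.6 CPM, control ASC2 1.39, 13 and 17.7 CPM, ovariectomized ASC1 libraries L, N and P 0, 0 and 0 CPM, and ovariectomized ASC2 3.83, 20.1 and 42.7 CPM. Castrated ASC1 and ASC2 had similar medians, and libraries I and J were the highest of castrated ASC2.

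Mrc1, the mannose receptor CD206 of tissue macrophages, lay at 2.21, 7.81 and 26.5 CPM (lowest, median and highest) in control male ASC1, at 0, 3.39 and 5.87 CPM in castrated male ASC1, at 0, 5.4 and 16.3 CPM in control male ASC2 and at 4.33, 14.7 and 44.4 CPM in castrated male ASC2. Female Mrc1 levels were 0, 17.5 and 30 CPM in control ASC1 and 2.71, 5.92 and 10.9 CPM in control ASC2, 2.27, 0 and 0 CPM in ovariectomized ASC1 libraries L, N and P, and 0, 6.64 and 16.2 CPM in ovariectomized ASC2. Castrated ASC1 held the lowest median among the male groups. Levels of Cd14, the co-receptor for bacterial lipopolysaccharide, had a lowest, median and highest value of 2.21, 12.1 and 22.8 CPM in control and 0, 8.54 and 11.7 CPM in castrated male ASC1, and of 4.44, 12 and 28.4 CPM in control and 6.0, 17.6 and 93.8 CPM in castrated male ASC2. For Cd14 in females, control ASC1 held 0, 14.2 and 44.3 CPM, control ASC2 6.33, 13.8 and 18.9 CPM, ovariectomized ASC1 libraries L, N and P 13.6, 27.5 and 18.5 CPM, and ovariectomized ASC2 0, 8.82 and 16.2 CPM. Cd14 did not follow the split of control male ASC1, it was present in ovariectomized ASC1, and library K stood out in castrated ASC2. Cd52, a small anchored antigen of lymphocytes and monocytes, lay at 0, 4.42 and 38 CPM (lowest, median and highest) in control male ASC1, at 0, 4.24 and 8.56 CPM in castrated male ASC1, at 0, 2.14 and 7.73 CPM in control male ASC2 and at 0.999, 13.1 and 24 CPM in castrated male ASC2. Female Cd52 levels were 1.99, 15.1 and 23.2 CPM in control ASC1 and 1.35, 8.11 and 20.1 CPM in control ASC2, 12.5, 18.3 and 37 CPM in ovariectomized ASC1 libraries L, N and P, and 0, 4.71 and 14.8 CPM in ovariectomized ASC2. Its ovariectomized ASC1 values were not low, unlike those of Trem2. The remaining receptors had few reads. Cd163, a scavenger receptor for haemoglobin complexes, had 37 reads over 23 libraries and reached 10.1 CPM. Ccr2, the monocyte chemokine receptor, had 8 reads in 7 libraries, and Cx3cr1, the fractalkine receptor, 2 reads in 2 libraries. Castration differences in ASC1 ran from -2.20 ± 0.54 for Adgre1 to -0.51 ± 0.30 for Csf1r, with Adgre1 and Ptprc (-2.11 ± 0.56) called. In ASC2 Csf1r (1.27 ± 0.29), Itgam (1.73 ± 0.51) and Cd52 (2.26 ± 0.61) were called higher.

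Lysosomal and antimicrobial genes held most of the reads, and all 8 were tested. Lyz2, lysozyme M, an antibacterial enzyme secreted by macrophages, lay at 476, 555 and 5639 CPM (lowest, median and highest) in control male ASC1, at 516, 603 and 755 CPM in castrated male ASC1, at 582, 648 and 1731 CPM in control male ASC2 and at 1156, 1625 and 5776 CPM in castrated male ASC2. Female Lyz2 levels were 571, 2274 and 2942 CPM in control ASC1 and 685, 875 and 1594 CPM in control ASC2, 15.9, 32 and 67.8 CPM in ovariectomized ASC1 libraries L, N and P, and 452, 789 and 981 CPM in ovariectomized ASC2. Libraries B, C and D of control male ASC1 and I and J of castrated ASC2 lay above the rest of their groups, and every castrated ASC2 library exceeded every castrated ASC1 library. Levels of Gpnmb, a glycoprotein of lysosomes and melanosomes, had a lowest, median and highest value of 451, 647 and 2279.6 CPM in control and 349.6, 388 and 506 CPM in castrated male ASC1, and of 419.6, 575 and 964 CPM in control and 647, 901 and 2273 CPM in castrated male ASC2. For Gpnmb in females, control ASC1 held 337, 875 and 1177 CPM, control ASC2 324, 551 and 794 CPM, ovariectomized ASC1 libraries L, N and P 520.5, 449 and 561 CPM, and ovariectomized ASC2 226, 349 and 411 CPM. Its ovariectomized ASC1 values were in the range of the other groups, where Lyz2 was at its lowest. The ratio of Lyz2 to Gpnmb reads was 0.0306 to 0.121 in ovariectomized ASC1 and 0.831 to 3.12 in the other 55 libraries. Cd68, encoding macrosialin of late endosomes and lysosomes, lay at 35.4, 72 and 459.5 CPM (lowest, median and highest) in control male ASC1, at 52.8, 68.7 and 92.8 CPM in castrated male ASC1, at 56.9, 95.7 and 158 CPM in control male ASC2 and at 99.8, 141 and 559 CPM in castrated male ASC2. Female Cd68 levels were 31.9, 197 and 270.3 CPM in control ASC1 and 65.6, 87.5 and 116 CPM in control ASC2, 2.27, 0 and 0 CPM in ovariectomized ASC1 libraries L, N and P, and 39.4, 67.6 and 112 CPM in ovariectomized ASC2. Libraries I and J again formed the top of castrated ASC2. Levels of Ctss, cathepsin S, a lysosomal protease of antigen-presenting cells, had a lowest, median and highest value of 53, 116 and 636 CPM in control and 33.1, 89.8 and 115 CPM in castrated male ASC1, and of 60.2, 99.2 and 188 CPM in control and 99.8, 139 and 732 CPM in castrated male ASC2. For Ctss in females, control ASC1 held 58.6, 283 and 426 CPM, control ASC2 73, 95 and 122 CPM, ovariectomized ASC1 libraries L, N and P 4.55, 27.5 and 18.5 CPM, and ovariectomized ASC2 42.7, 84.9 and 134 CPM. All 58 libraries had reads, with the highest level in castrated ASC2 library J.

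Laptm5, a lysosomal membrane protein of blood cells, lay at 18.4, 42.5 and 193 CPM (lowest, median and highest) in control male ASC1, at 15.9, 27.9 and 39.3 CPM in castrated male ASC1, at 23.5, 38.2 and 59 CPM in control male ASC2 and at 38.6, 66.8 and 231 CPM in castrated male ASC2. Female Laptm5 levels were 16, 93.7 and 127 CPM in control ASC1 and 17.6, 32.4 and 64.5 CPM in control ASC2, 12.5, 18.3 and 12.3 CPM in ovariectomized ASC1 libraries L, N and P, and 14.3, 28.6 and 44.4 CPM in ovariectomized ASC2. It had reads in all libraries, including ovariectomized ASC1. Levels of Mpeg1, encoding perforin-2, a pore-forming antibacterial protein, had a lowest, median and highest value of 12.1, 25.5 and 181 CPM in control and 11.9, 22 and 33.1 CPM in castrated male ASC1, and of 0, 35.9 and 76 CPM in control and 35, 47.8 and 226 CPM in castrated male ASC2. For Mpeg1 in females, control ASC1 held 19.6, 91.3 and 108 CPM, control ASC2 26.3, 32.1 and 43.3 CPM, ovariectomized ASC1 libraries L, N and P 3.41, 13.7 and 0 CPM, and ovariectomized ASC2 3.83, 32.6 and 51.2 CPM. Castrated ASC2 lay above castrated ASC1 without overlap. Cybb, the catalytic subunit of the phagocyte NADPH oxidase, lay at 5.21, 8.64 and 62.4 CPM (lowest, median and highest) in control male ASC1, at 1.27, 5.05 and 11.9 CPM in castrated male ASC1, at 2.22, 9.99 and 25.9 CPM in control male ASC2 and at 10.2, 19.8 and 88.8 CPM in castrated male ASC2. Female Cybb levels were 5.98, 14.3 and 23.6 CPM in control ASC1 and 2.94, 13.3 and 25 CPM in control ASC2, 2.27, 0 and 0 CPM in ovariectomized ASC1 libraries L, N and P, and 0, 5.98 and 10.1 CPM in ovariectomized ASC2. Both populations of castrated males overlapped with the controls. Levels of Tbxas1, thromboxane synthase, had a lowest, median and highest value of 1.73, 4.42 and 35.5 CPM in control and 0, 3.95 and 7.13 CPM in castrated male ASC1, and of 0, 2.27 and 6.44 CPM in control and 0, 7.95 and 50.2 CPM in castrated male ASC2. For Tbxas1 in females, control ASC1 held 4.26, 9.97 and 26.1 CPM, control ASC2 1.27, 2.86 and 9.21 CPM, ovariectomized ASC1 libraries L, N and P 0, 0 and 0 CPM, and ovariectomized ASC2 1.84, 5.52 and 18 CPM. Castrated ASC2 library I had the highest level, and ovariectomized ASC1 no read. Castration differences in ASC1 were -2.03 ± 0.41 for Lyz2, -1.54 ± 0.30 for Gpnmb and -1.64 ± 0.41 for Cd68, and 7 of the 8 genes were called lower, all but Tbxas1 (-2.20 ± 0.68). In ASC2 they were 1.46 ± 0.40, 0.83 ± 0.28 and 1.23 ± 0.39, and 6 were called higher, all but Gpnmb and Mpeg1. Without overlap, Lyz2, Cd68, Gpnmb, Mpeg1 and Cd300a were higher in castrated ASC2 than in castrated ASC1 (all genes, 0.987%).

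Cytoskeletal and signalling genes of blood cells were the fourth group, with 5 of 6 tested. Lcp1, encoding L-plastin, which bundles actin, lay at 11.3, 32.8 and 146 CPM (lowest, median and highest) in control male ASC1, at 19.9, 23.4 and 33 CPM in castrated male ASC1, at 17.7, 54.1 and 76 CPM in control male ASC2 and at 25.8, 64.3 and 186 CPM in castrated male ASC2. Female Lcp1 levels were 13.1, 54.1 and 90.1 CPM in control ASC1 and 23.6, 32.5 and 55.3 CPM in control ASC2, 15.9, 0 and 12.3 CPM in ovariectomized ASC1 libraries L, N and P, and 12.5, 24.3 and 39.3 CPM in ovariectomized ASC2. The highest level was in castrated ASC2 library J. Levels of Plek, encoding pleckstrin, a substrate of protein kinase C, had a lowest, median and highest value of 5.21, 22.6 and 70.3 CPM in control and 2.61, 8.97 and 12.9 CPM in castrated male ASC1, and of 4.7, 20.6 and 43.7 CPM in control and 6.44, 26.5 and 96.4 CPM in castrated male ASC2. For Plek in females, control ASC1 held 3.99, 29 and 51.4 CPM, control ASC2 4.73, 13.2 and 20.3 CPM, ovariectomized ASC1 libraries L, N and P 2.27, 0 and 0 CPM, and ovariectomized ASC2 0, 12.7 and 19.1 CPM. Ovariectomized ASC1 had reads in library L alone. Myo1f, a myosin of myeloid cells, lay at 2.21, 12.1 and 68.3 CPM (lowest, median and highest) in control male ASC1, at 0, 3.27 and 9.93 CPM in castrated male ASC1, at 2.11, 7.17 and 9.39 CPM in control male ASC2 and at 8.52, 19.1 and 77.5 CPM in castrated male ASC2. Female Myo1f levels were 6.53, 16.6 and 37.2 CPM in control ASC1 and 0, 7.3 and 27.6 CPM in control ASC2, 0, 0 and 0 CPM in ovariectomized ASC1 libraries L, N and P, and 0, 4.47 and 16.4 CPM in ovariectomized ASC2. No read fell on it in ovariectomized ASC1. Levels of Coro1a, coronin-1A, which regulates actin in leukocytes, had a lowest, median and highest value of 3.46, 6.94 and 30.7 CPM in control and 0, 9.46 and 12.9 CPM in castrated male ASC1, and of 0, 5.17 and 15.4 CPM in control and 7.99, 21.2 and 32.2 CPM in castrated male ASC2. For Coro1a in females, control ASC1 held 2.95, 6.26 and 21.6 CPM, control ASC2 1.35, 11 and 13.9 CPM, ovariectomized ASC1 libraries L, N and P 18.2, 9.16 and 18.5 CPM, and ovariectomized ASC2 0, 7.99 and 14.8 CPM. Its ovariectomized ASC1 values were not below those of the other groups. Castration differences in ASC1 were -1.46 ± 0.41 for Lcp1, -2.04 ± 0.51 for Plek and -2.74 ± 0.62 for Myo1f, all called lower, and -0.92 ± 0.47 for Coro1a. In ASC2 Myo1f (2.18 ± 0.55) and Coro1a (1.72 ± 0.45) were called higher, and Lcp1 (0.81 ± 0.37) and Plek (0.66 ± 0.44) were not.

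Tagap, a GTPase-activating protein of activated T cells, was the exception of the set. It had no read in the 7 control male ASC1 libraries and 123 reads in castrated male ASC1, where the lowest, median and highest levels were 0, 28.2 and 49.7 CPM. Against a floor of 3 reads over the control group, its mean of 25.5 CPM was at least 47.4-fold higher. In castrated ASC1 it lay at 23.5 to 49.7 CPM in libraries K to P, at 1.79 CPM in I and at 0 in J. It reached 3.41 CPM in castrated ASC2 and 0.703 CPM in control male ASC2. Female levels were 0 to 3.32 CPM in control ASC1, 0 to 16.6 CPM in control ASC2, 0 in ovariectomized ASC1 and 16.4 to 33.4 CPM in ovariectomized ASC2 libraries I to L, with none in M to P. Control male ASC1 libraries B, C and D, with the high Lyz2 levels, had none. Aif1, the calcium-binding protein IBA1, had 26 reads in 14 libraries and was not tested.

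**Figure D4:**
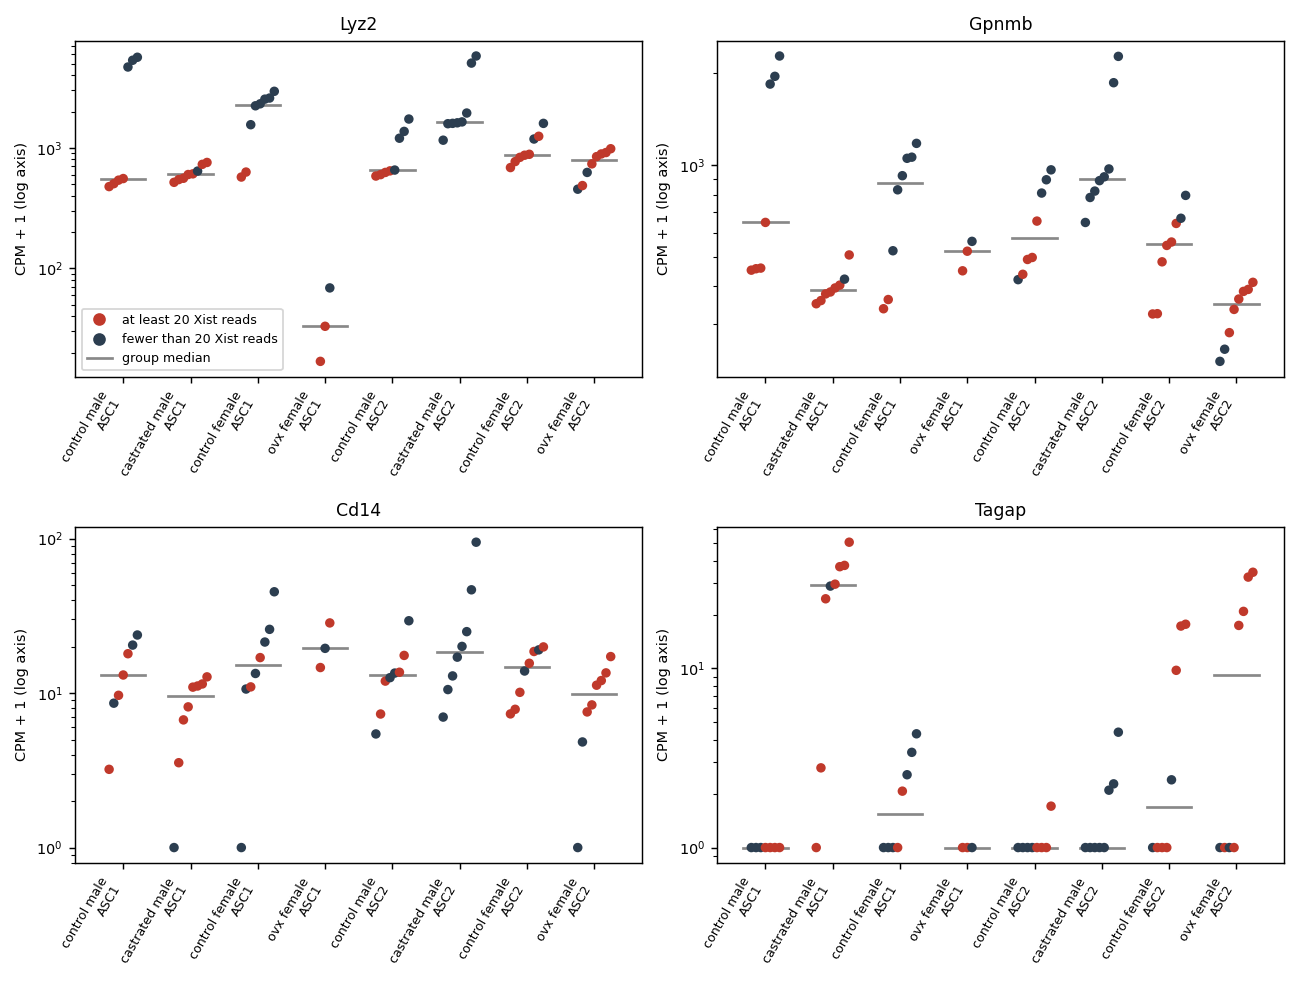
Levels of Lyz2, Gpnmb, Cd14 and Tagap as CPM + 1 (log axis) per library and group, coloured by Xist reads as in the plot of the sums, with group medians as grey lines. Lyz2 and Gpnmb share their high libraries but part in ovariectomized ASC1 (15.9 to 67.8 and 449 to 561 CPM), Cd14 has no such split, and Tagap is at 16.2 CPM or more in 6 castrated male ASC1, 4 ovariectomized ASC2 and 2 control female ASC2 libraries.

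Spi1, which encodes PU.1, the master transcription factor of macrophages, had 11 reads in 8 libraries and reached 2.58 CPM, too few to compare. The 250 bases before the RefSeq transcription start of the members (build GRCm38.p6) were searched for GAGGAA, the core of the PU.1 binding element, on both strands. A start was found for 26 of the 33 members by symbol, and 14 of them (53.8%) held the letters at any start, against 6986 of 27025 genes (25.9%). The files were made on GRCm39, so the coordinates are those of the reference only. A match is a run of letters, not a site. The members were chosen by name as myeloid genes, so this share does not bear on their levels here. A part of PU.1 in these levels was not tested. The stretches of 2 members with a match and high levels in libraries B, C and D, and of Lyz2, which has none, are shown on the strand of the gene, with the match or its reverse complement in capitals. They lie at chr4:130913066-130913315 (plus strand) for Laptm5, chr17:48346151-48346400 (plus strand) for Trem2 and chr10:117282273-117282522 (minus strand) for Lyz2.
Laptm5: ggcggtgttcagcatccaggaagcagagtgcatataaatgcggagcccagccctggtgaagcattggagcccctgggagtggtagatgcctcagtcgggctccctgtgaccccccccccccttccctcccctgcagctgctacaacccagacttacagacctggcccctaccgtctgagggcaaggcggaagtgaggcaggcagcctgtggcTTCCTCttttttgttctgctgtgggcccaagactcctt
Trem2: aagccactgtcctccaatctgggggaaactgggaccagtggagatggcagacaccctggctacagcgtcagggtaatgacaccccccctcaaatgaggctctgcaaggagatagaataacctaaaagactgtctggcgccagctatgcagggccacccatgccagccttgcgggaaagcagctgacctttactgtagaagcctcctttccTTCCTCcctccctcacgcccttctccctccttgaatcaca
Lyz2: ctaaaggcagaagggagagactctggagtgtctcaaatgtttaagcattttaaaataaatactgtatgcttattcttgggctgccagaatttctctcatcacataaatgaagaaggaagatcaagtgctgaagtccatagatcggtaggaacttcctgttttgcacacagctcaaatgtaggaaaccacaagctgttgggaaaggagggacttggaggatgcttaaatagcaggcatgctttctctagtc

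Taken over all groups, the members varied together across libraries. After removal of each group's mean, the median Pearson correlation of log2(CPM + 1) over the 378 pairs of tested members was 0.463, with a range of -0.161 to 0.909, and 0.0259 over all pairs of tested genes (58 libraries, which share plate, depth and group). In ASC1 alone it was 0.612 (26 libraries) and in ASC2 alone 0.355 (32 libraries). Lyz2 and Gpnmb were the closest pair (0.909), followed by Lyz2 and Ctss (0.901). Lyz2, Gpnmb, Cd68 and Ctss had the highest median correlation with the other members (0.604 to 0.63), and Tagap (0.131), Fcgr2b (0.266) and Cd14 (0.267) the lowest. Many members with few reads had correlations that the counts limit. No correlation was computed for a single group, and groups with a wide spread weigh most in the pooled values. The SD of the sum was 4669.5 CPM in control male ASC1, 3535 CPM in castrated male ASC2 and 137 CPM in castrated male ASC1.

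Of the 10 genes outside the list that followed the sum most closely, 3 encode lysosomal proteins. Over the 58 libraries, after removal of group means, Pearson's r with log2(sum + 1) was 0.93 for Ctsd and 0.858 for Ctsb, both lysosomal cathepsins, and 0.892 for Psap, the precursor of the saposins. It was 0.884 for Adam8, a membrane protease, 0.877 for Mmp12, the macrophage elastase, and 0.855 for Ccl6, a chemokine. Stab1, a scavenger receptor (0.849), Hk3, a hexokinase (0.846), Cfp, properdin (0.833), and Trf, transferrin (0.823), completed the first 10. Mmp12 had a mean of 567.9 CPM in control and 77.7 CPM in castrated male ASC1, and of 279 and 586.5 CPM in ASC2. In ovariectomized ASC1 the mean of Mmp12 was 0.379 CPM and that of Psap 4135 CPM, so the 2 genes part there as Lyz2 and Gpnmb do.

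Of 70 further myeloid genes listed beside the members, 61 were tested. In castrated against control male ASC1, 18 were lower and 0 higher (all genes, 1.3% and 1.06%), with a median log2 difference of -1.28 (all genes, -0.01). The largest were those of Marco, a scavenger receptor (-4.31 ± 1.14), Ms4a7 (-2.77 ± 0.59), Clec4n, encoding dectin-2 (-2.52 ± 0.48), Msr1, a scavenger receptor (-2.02 ± 0.39), and Hcls1 (-2.01 ± 0.51). In ASC2, 12 were higher and 0 lower (all genes, 2.66% and 4.29%), with a median of 1.04, led by Ly86 (2.10 ± 0.57), Rac2, a GTPase of blood cells (1.91 ± 0.41), Csf2rb (1.83 ± 0.54), Ptpn6 (1.69 ± 0.55) and Alox5ap (1.59 ± 0.38). The difference between both effects was positive for 28 and negative for 0 (all genes, 1.53% and 0.883%), with the largest values for Marco (4.90 ± 1.35), Ms4a7 (4.01 ± 0.78), Clec4n (3.88 ± 0.64), Rac2 (3.85 ± 0.62) and Csf2rb (3.65 ± 0.78). These share the libraries of the members' comparisons and are given as a description. Calls of these genes by the Xist reads of the control libraries were not counted.

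Markers of other cells that a sort of this kind can hold were followed in the same libraries. Summed over 12 endothelial genes, the level was 119 to 212 CPM in control and 136 to 195.5 CPM in castrated male ASC1, and 158 to 268 and 207 to 346.5 CPM in ASC2. Of these, 0 of 12 were called in ASC1 and 6 higher and 1 lower in ASC2 after castration. For this and the lists that follow, 1.06% of all genes were higher and 1.3% lower in ASC1, and 2.66% and 4.29% in ASC2. The 14 lymphoid genes summed to 19 to 33 and 0 to 28.6 CPM in male ASC1, and to 4.44 to 29.8 and 29.2 to 84.2 CPM in male ASC2. The sum of 11 genes of dendritic cells and antigen presentation was 46.7 to 106 and 36.4 to 126 CPM in male ASC1, and 28.2 to 163 and 103 to 294 CPM in male ASC2. Of the tested ones, 1 of 4 lymphoid and 0 of 7 dendritic genes were called lower in castrated ASC1, and 1 of 4 and 3 of 7 higher in castrated ASC2. The 6 epithelial genes summed to 5.94 to 21.8 CPM in control male ASC1 libraries B to D and to 103 to 221 CPM in E to H. The 10 mural genes, of pericytes and smooth muscle, summed to 1288 to 1387 CPM in B to D and to 850.3 to 1140.5 CPM in E to H. In castrated ASC1 the mural sum was 2193 to 2527 CPM in libraries K to P, those with 23.5 CPM or more of Tagap, and 975 and 728.5 CPM in I and J. A high mural sum did not always go with Tagap. Ovariectomized ASC2 libraries I to L, with Tagap, had mural sums of 2989 to 3643 CPM, and N and O, without a Tagap read, 2909 and 2887 CPM. After castration 0 of 5 epithelial and 0 of 9 mural genes tested were called in ASC1, and 0 of 5 and 3 of 9 (2 higher, 1 lower) in ASC2. Of 5 mast cell and basophil genes tested, 0 were called in ASC1 and 1, lower, in ASC2. The part of these other cells in the results on the myeloid genes was not tested.

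Ovariectomy was compared in ASC2, with no library labelled male, though the spread was estimated over all 8 groups. Of the 8 control libraries, 6 held 23 to 47 Y-linked reads, while no ovariectomized library reached 3. In this comparison 3 of 4 Y-linked genes were called lower, so ovariectomy and sex-chromosome reads cannot be told apart. Without the libraries against their sex label, which left 2 controls, 0 members were called. Between ovariectomized and control female ASC2, 0 of the 28 members passed an adjusted p of 0.05 in edgeR, as did 2.09% of all genes, and 1, Gpnmb, had an unadjusted p below 0.05. DESeq2 called 0 as well. The log2 differences ran from -1.06 (Cybb) to 1.33 (Tagap), with a median of -0.11. All 5 epithelial genes tested were higher after ovariectomy, and their part was not tested. Among the 61 further myeloid genes 2 were called, where 2.09% of all genes were, so nothing is read from the count. They were Cd5l (-3.30 ± 0.94, adjusted p = 0.0436 in edgeR) and Retnla (-2.97 ± 0.73, adjusted p = 0.0136 in edgeR), both lower and both products of resident or alternatively activated macrophages.

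Between control males, whose libraries also entered the castration comparisons, and control females, 0 members were called in ASC1 in edgeR, where 0.289% of all genes were, 0 had an unadjusted p below 0.05 and DESeq2 called 0. In this comparison 0 of 4 Y-linked genes were called, at -1.32 to 0.192 (log2), and Xist, at 0.818, was not called either. The labels thus did not separate the sex-chromosome reads, and the absence of calls says nothing about sex. Without the libraries against their sex label, 11 were higher in males, with no share of all genes taken, so nothing is read from the count. That fit had 3 libraries in each group, and those of control males were B, C and D, with the high sums. In ASC2, 1 member was called, where 6.49% of all genes were: Tagap was lower in males (-4.19 ± 1.12 log2), with 1 read in the 8 male and 36 reads in the 8 female libraries. The ratio of these pooled reads on scaled library sizes was 41.6 (95% counting interval 7.01 to 1689). The interval covers counting error only and no spread between libraries. Female levels were 16.65 CPM in library C, 16.2 CPM in D, 8.76 CPM in H, 1.39 CPM in F and 0 in the others. Libraries C and D had 0 Y-linked reads, and the other control female ASC2 libraries went against their sex label. In ASC2, 1 of 4 Y-linked genes was called, higher in males, and Xist, at -0.761 (log2), was not. The labels thus separated the sex-chromosome reads only in part. Without the libraries against their label, which left 4 male and 2 female ones, 1 member was lower in males. Without control female ASC2 library C Tagap was not called. Of the 61 further myeloid genes, 2 were called in ASC2, where 6.49% of all genes were, so nothing is read from the count. They were Retnla (-3.24 ± 0.70, adjusted p = 0.00203) and Lyve1 (-2.86 ± 0.92, adjusted p = 0.0475), a receptor of resident macrophages and lymphatic vessels, both lower in males in edgeR.

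The sorted populations were compared within each group. In control males 15 members were lower in ASC2 than in ASC1 and 0 higher (all genes, 5.34% lower and 6.88% higher), which is a description, since these libraries are the controls of the castration comparisons. The log2 difference was -2.50 ± 0.67 for Tbxas1, -2.23 ± 0.58 for Lat2 and -1.45 ± 0.41 for Lyz2. Fitted on the compared groups alone, 7 were called. With control males of at least 20 Xist reads alone, 0 were called, and without ASC1 library C or D 6 and without B 7. In control females 5 were lower and 0 higher (all genes, 2.58% and 3.54%): Lat2 (-2.57 ± 0.62, adjusted p = 0.00424 in edgeR), Itgam (-2.09 ± 0.54, adjusted p = 0.0084), Ctss (-1.38 ± 0.42, adjusted p = 0.0345), Fcer1g (-1.36 ± 0.41, adjusted p = 0.0302) and Laptm5 (-1.33 ± 0.40, adjusted p = 0.0292). Without a filter on low counts 11 were called, without the libraries against their sex label 0, without ASC1 library C, G or H or ASC2 library E 2, without ASC1 library D or ASC2 library G 3, and without ASC1 library E 9.

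In castrated males, again as a description, 22 members were higher in ASC2 than in ASC1 and 1, Tagap, was lower (all genes, 4.44% higher and 4.62% lower). The log2 difference was 3.09 ± 0.65 for Lat2, 2.82 ± 0.61 for Myo1f and 2.74 ± 0.59 for Cd300a, and all 8 lysosomal genes were among the 22, with 2.04 ± 0.41 for Lyz2. Libraries I and J exceeded the other 6 castrated ASC2 libraries in 22 of 28 members (all genes, 8.13%), and without them 10 members were higher.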

How the data were processed

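The authors sorted ASC1 and ASC2 from iWAT, made bulk Smart-seq3 libraries, removed those with fewer than 8500 detected genes, and quantified the rest with Salmon 1.9.0 on Gencode transcripts. What they deposited are estimated counts, not normalized. The submitters' processing notes give GRCm39 as the build, and STAR 2.7.10a served for quality control. All 58 columns were matched to a library, and 0 were left over. The estimated counts, of which 15% of those above 0 were not whole, were rounded and read in R 4.3.3. The differences were tested with edgeR 4.0.16 (TMM, glmQLFit, glmQLFTest) on the 12464 genes that reached 5 reads in over 3 libraries, with 1 coefficient for each of 8 groups and Benjamini-Hochberg adjustment over all genes tested, at 0.05. The fits were tested on simulated data. SE is the log2 difference divided by the root of its F. The common biological coefficient of variation was 35.6%.

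Total counts of 106566 to 1421547 per library set the precision, and floors of 3 reads cover counting error only. Levels and figures were made in Python 3.11.15 with pandas 2.3.3, numpy 2.4.6 and matplotlib 3.10.9. The chi-square per gene of 2 libraries of a group was at least 1.53, so none was counted as a copy of another. The members and all gene lists were chosen with earlier results of these data known. All 33 members are accounted for, and a mean of at least 5 CPM over the libraries was asked for full group values. Of other genes, the text names the 10 most correlated with the sum and up to 5 further myeloid genes called with the largest change in each comparison. Symbols were matched by Ensembl identifier to an older Gencode release (12371 of the genes tested), and promoter sequences came from RefSeq, build GRCm38.p6. Alternatives were RLE size factors, library size alone, no filter, filterByExpr, robust estimation, DESeq2 1.42.0, only the groups compared, without the libraries against their sex label, leaving out each library, and a replicate block in edgeR or in limma 3.58.1. Where control libraries were restricted by Xist reads, fits were added after the data had been seen.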

Additional observations from a re-analysis of the deposited data

Results flagged for a closer look

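A single library lay apart from its group by Dixon's criterion in 8 of 196 groups of levels examined (27 members and their sum in 7 groups of 7 or 8 libraries), where chance gives about 1 in 20. They were Fcgr2b in control female ASC2 library D (21.7 CPM, the others 1.58 to 10.9 CPM), Cd14 in castrated male ASC2 library K (93.8 CPM, the others 6.0 to 45.6 CPM), Ptprc in castrated male ASC2 library J (34.2 CPM, the others 3.18 to 16.1 CPM), Itgam in ovariectomized female ASC2 library P (42.7 CPM, the others 3.83 to 21.6 CPM), Cd52 in control female ASC2 library G (20.1 CPM, the others 1.35 to 9.21 CPM), Gpnmb in castrated male ASC1 library J (506 CPM, the others 349.6 to 421 CPM), Tagap in castrated male ASC2 library N (3.41 CPM, the others 0 to 1.27 CPM) and Tagap in control male ASC2 library E (0.703 CPM, the others 0).

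The interaction term of edgeR for the castration effect in ASC2 against ASC1 passed an adjusted p of 0.05 for 24 members. Since the set was chosen in part on the castration differences of these libraries, this describes them and is no test. On the log2 scale, the effect in ASC2 minus that in ASC1 was 3.58 for Tyrobp, 3.41 for Fcer1g, 3.3 for Fcgr3, 3.43 for Trem2, 5.32 for Lat2 and 4.66 for Cd300a among ITAM adaptors, Fc receptors and related genes. It was 2.79 for Adgre1, 1.78 for Csf1r, 3.03 for Ptprc, 2.95 for Itgam, 3.13 for Mrc1 and 3.66 for Cd52 among surface receptors and antigens. It was 3.49 for Lyz2, 2.87 for Cd68, 3.19 for Ctss, 3.2 for Laptm5, 2.36 for Gpnmb, 2.83 for Mpeg1, 3.74 for Cybb and 4.69 for Tbxas1 among lysosomal and antimicrobial genes, and 4.92 for Myo1f, 2.7 for Plek, 2.65 for Coro1a and 2.26 for Lcp1 among cytoskeletal and signalling genes. Fitted on control males with at least 20 Xist reads, 0 of the 24 were called, and with fewer than 20 Xist reads 24 members were called. In the fitted controls of ASC1, libraries B, C and D with high levels had no Xist read, and castrated ASC1 libraries had 13 to 97. The part of the sex-chromosome reads in these differences was not tested.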

How the results depend on the processing

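The numbers of members called, in either direction, were recomputed under each alternative, and the share of all genes called was taken for the main fit alone. Control males by Xist reads and castrated ASC2 without libraries I and J were chosen after seeing the data. With control males of at least 20 Xist reads alone, 1 member was called for castration in ASC1 in place of 19, 0 for the difference of the castration effect between populations in place of 24, and 0 for ASC2 against ASC1 of control males in place of 15. With those of fewer than 20 Xist reads, castration in ASC2 called 8 in place of 17. Without castrated ASC2 I and J it called 3, and ASC2 against ASC1 of castrated males called 11 in place of 23. Without the libraries against their sex label, castration in ASC2 called 5, males against females in ASC1 11 in place of 0, and ASC2 against ASC1 of control females 0 in place of 5. This could not be fitted for castrated ASC1, which keeps 1 library. Using only the groups compared, castration in ASC2 called 10 and ASC2 against ASC1 of control males 7. Without a filter on low counts, ASC2 against ASC1 of control females called 11.

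The replicate letter under a sex label did not pair the samples: the correlation of same-letter deviations from the group means exceeded 0.1 in 5 of 26 pairs (-0.169 to 0.268). With the replicate block as a random term in limma voom, whose within-block correlation was 0.0522, 2 members were called for castration in ASC1, 7 in ASC2 and 15 for their difference, 2 each for ASC2 against ASC1 of control males and control females, and 0 for males against females in ASC2. That fit also replaced edgeR by limma voom. No voom fit without the block was made, so the part of the block in these counts was not tested. Control males had letters A to H and castrated males I to P, so no block held libraries of both. With a fixed replicate block in edgeR, ASC2 against ASC1 of control males called 7. Apart from the cases named, RLE size factors, library size alone, filterByExpr, robust estimation, DESeq2 and the other fits gave counts within 1.5 times.

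Leaving out each library in turn gave 6 to 20 members called for castration in ASC1 (6 without control D, 10 without B or C), 5 to 19 in ASC2 (5 without castrated I, 9 without J, 11 without control D), 22 to 25 for their difference, 6 to 18 for ASC2 against ASC1 of control males, 2 to 9 of control females, 19 to 24 of castrated males, 0 to 1 for males against females in ASC2 (0 without female C), and 0 for males against females in ASC1 and for ovariectomy.

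Directions of single members turned in 16 cases. With control males of at least 20 Xist reads, the log2 difference of castration in ASC1 became Adgre1 0.061, Cd300a 0.27, Cd68 0.28, Ctss 0.092, Lcp1 0.30, Lyz2 0.25, Mpeg1 0.068, Trem2 0.49 and Tyrobp 0.34, and that of ASC2 against ASC1 in control males Cd52 0.041, Gpnmb 0.030, Laptm5 0.077, Lyz2 0.23, Myo1f 0.16 and Trem2 0.54. Without the libraries against their sex label, that of ASC2 against ASC1 in control females became Fcer1g 0.081. The cause was not tested.

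The median sum of the members moved to 10555 CPM in control male ASC1, 2960.2 CPM in control male ASC2 and 1399.9 CPM in control female ASC1 without the libraries against their sex label, and to 511 CPM in ovariectomized ASC1 with library size alone. The median correlation between members was 0.394 with a pseudocount of 0.25 CPM and 0.568 with 5 CPM. Low totals limit the members with few reads.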
